A study of Danio rerio with 2 samples.

Results

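The sarcomere genes described here are the 61 of 27098 gene features whose names in the deposited tables begin as those of myosin heavy and light chains, myosin light chain kinases, troponins, tropomyosins, myosin-binding protein C, titin, nebulin, alpha-actinins of muscle, telethonin (tcap), ldb3 and myomesin, together with the feature ns:zf-e68. They were read in 2 zebrafish RNA sequencing libraries, 1 of pooled whole embryos and 1 of pooled livers dissected from adult fish. Exposure of the fish lasted 48 h and was to 9 compounds known as toxic to the human liver, which were valproic acid, the antibiotic tetracycline, amiodarone, thioacetamide, chlorpromazine, paraquat, acetaminophen, 17a-ethynylestradiol and the immunosuppressant cyclosporine A. Embryos were taken as samples of 15, and RNA of all samples of a source was combined in equal amounts. Every value therefore mixes the 9 exposures, and no unexposed library was analysed here. Neither the strain, nor the age of the embryos, nor the sex of the adults was stated in these sources. The libraries held 11408727 (embryo) and 13020149 (liver) total gene reads.

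A sarcomere is the contractile unit of striated muscle, in which thick filaments of myosin pull on thin filaments of actin. Each myosin motor has heavy chains and light chains, while tropomyosin and the troponin complex on the thin filament switch contraction on when calcium binds troponin C. Titin, nebulin, alpha-actinin and myomesin hold the filaments in register. Fast muscle, slow muscle and heart use different genes for the same part, and a separate set of myosins and tropomyosins serves smooth muscle and the cytoskeleton of cells that are not muscle, the liver's cells among them.

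The name rule took in 19 genes listed as fast-muscle isoforms, 8 as slow, 9 as heart, 9 scaffold proteins shared by striated muscles and 6 non-muscle or smooth-muscle isoforms. The other 10 were left unassigned. The label of sarcomere genes thus covers the 45 members listed as striated and not the 6 non-muscle ones. Even among the 45, tropomyosin genes also make cytoskeletal forms in cells that are not muscle. Of the 61 features, 54 matched a current gene symbol.

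Transcripts of striated muscle genes were abundant in the embryo pool and a trace of the liver pool. The 45 striated members summed to 711537 embryo reads, 6.24% of that library, and 2095 liver reads, 0.0161%, a difference of 388-fold (exact 95% interval 371 to 405). Of these liver reads 1611, or 76.9%, lay in tpm2, tpm3, tpm4 and myh7b. Without these 4 genes, a choice made after seeing the values, the striated ratio was 1653 (1512 to 1811). All 61 members together had 760240 embryo reads and 9206 liver reads, a ratio of 94.2 (92.3 to 96.2), and the non-muscle isoforms held 4553 and the unassigned myh9l1 2413 of those liver reads. By reads, 5 of the 10 and 16 of the 100 most abundant embryo features were members. Ranked per exon length, these numbers were 4 and 8. No member was among the 500 most abundant liver features by reads. All members had at least 10 embryo reads, the lowest being mylk3 with 44, whereas 26 had at least 10 liver reads and 7 had none. With 1 library per source there was no replicate check and no test. Intervals, given in brackets, cover counting error only and would be too narrow if PCR copies or mates were counted apart.

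Levels were compared as CPM (counts scaled to a common total of gene reads), and a gene counted as higher in a pool when its pool had 10 or more reads and the whole interval of the ratio reached 4-fold. By this rule 52 of 61 members, 85.2%, were higher in the embryo pool, against a background of 30.9% of all features tested. No member was higher in the liver pool, where the background was 3.35%. On the log2 scale, liver over embryo, members had a median ratio of -7.07 and all features tested -1.60. Scaling by trimmed means (TMM), which shifts every log2 ratio by 1.35 toward the liver, left 47 members higher in the embryo pool against a background of 15.8%, and again none in the liver pool, where the background was 8.06%. In whole-tissue RNA, fewer muscle cells and less RNA per muscle cell cannot be told apart.

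**Figure D1:**
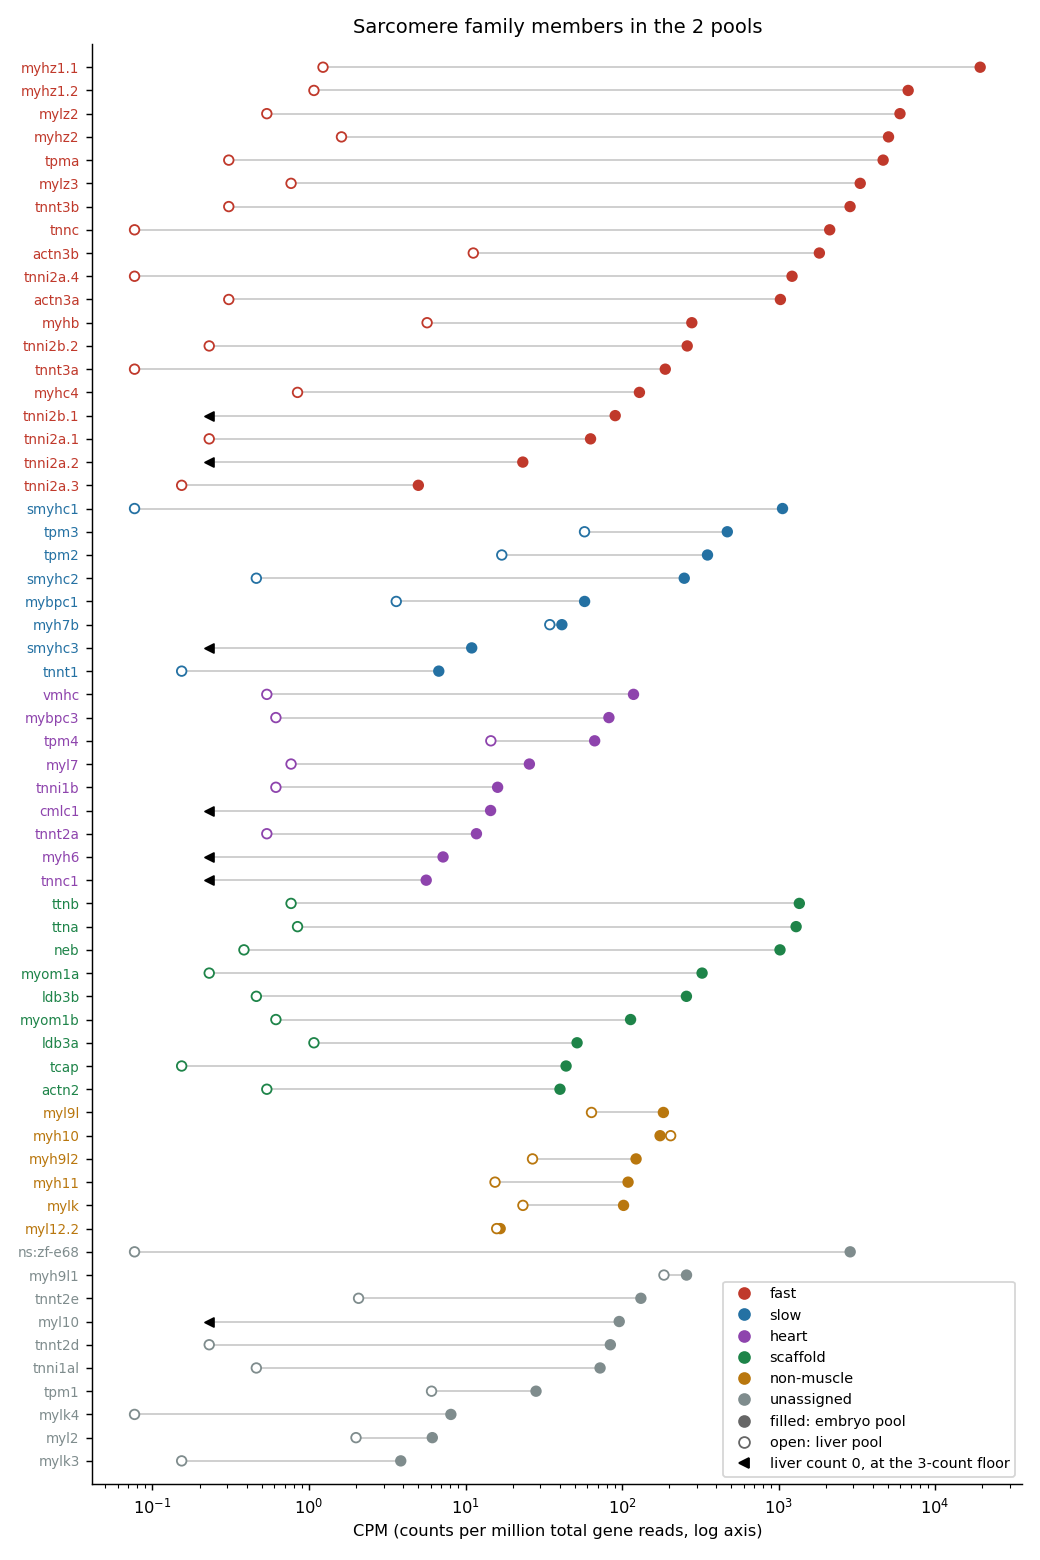
CPM of each of the 61 members on a log axis, embryo pool as filled circles and liver pool as open circles, coloured by class; triangles stand for a liver count of 0, drawn at the floor of 3 counts (0.230 CPM), so that points of 1 or 2 reads lie to their left. The filled point lies to the right of the open one for every member except myh10.

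The fast-muscle genes showed the widest gap. All 19 were higher in the embryo pool, against the background of 30.9% of all features tested. They had 630479 embryo reads against 322 liver reads, a ratio of 2235 (2003 to 2500.3). The fast myosin heavy chain myhz1.1, the motor subunit of the thick filament, had 221638 embryo reads and 16 liver reads. Its relatives myhz1.2 and myhz2 had 76838 and 57547 embryo reads against 14 and 21 liver reads. A further copy, myhc4, had 1474 and 11. The heavy chains myhz1.1, myhz1.2 and myhz2 alone held 46.8% of the embryo reads of all members, or 24.8% with unique reads.

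The fast light chains followed. mylz2 (current symbol mylpfa), the regulatory light chain, had 68116 embryo reads and 7 liver reads. mylz3, an alkali light chain, had 37953 and 10. On the thin filament the tropomyosin tpma had 53161 embryo reads and 4 liver reads, a ratio of 15167 (5924 to 55669). The interval spans nearly a factor of 10 because so few liver reads stand behind it.

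Among fast troponins, the calcium-binding subunit gene tnnc (current tnnc2.2) had 24222 embryo reads and 1 liver read. The tropomyosin-binding subunit tnnt3b had 32681 and 4, and the inhibitory subunit tnni2a.4 had 13919 and 1. The duplicates stood well below them in the embryo pool. tnnt3a had 2156 embryo reads and 1 liver read. tnni2b.1 had 1032 embryo reads and no liver read. With the floor of 3 counts in place of 0 its ratio was 393, and the lower interval limit was 319.

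Some copies lying side by side differed greatly. The 4 tnni2a genes sit within 60.9 kb in the coordinates of the files, and tnni2a.4 took 93.0% (92.6 to 93.4) of their embryo reads. tnni2a.1 took 4.80%, tnni2a.2 1.77% and tnni2a.3 0.381%, with 718, 265 and 57 reads. Per exon length, in the RPKM of the authors (exon reads scaled to exon length and library total), tnni2a.4 stood at 1681 and tnni2a.1 at 79.0, a ratio of 21.3. The other pair of neighbouring troponin I copies was closer, with tnni2b.2 at 339 RPKM and tnni2b.1 at 78.4. tnnt3b and tnnt3a, which lie beside the tnni2b and tnni2a groups, stood at 2241 and 170 RPKM.

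Slow-muscle genes differed less between the pools as a class, through a few members. The class had 25663 embryo reads and 1478 liver reads, a ratio of 19.8 (18.8 to 20.9). Of its 8 members 7 were higher in the embryo pool, against the background of 30.9%. The slow myosin heavy chain smyhc1, the marker motor of slow fibres, had 12100 embryo reads and 1 liver read. smyhc2 had 2850 and 6, and smyhc3 had 125 and 0. The smyhc myosins thus had at most 6 liver reads each. The 3 smyhc genes lie within 77.4 kb, and smyhc1 took 80.3% (79.6 to 80.9) of their embryo reads.

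The liver reads of the slow class sat in the tropomyosins and in myh7b. tpm3 had 5370 embryo reads and 750 liver reads, 8.17-fold higher (7.57 to 8.83) in the embryo pool. tpm2 had 4012 and 222. Tropomyosin genes also make cytoskeletal forms in cells that are not muscle, and gene totals do not separate these forms. myh7b (current myh7ba), a heavy chain related to the slow and heart myosins, had 471 embryo reads and 450 liver reads and was called in neither direction, with a liver to embryo ratio of 0.837 (0.734 to 0.955). Under TMM its direction turned, to a liver to embryo ratio of 2.14. Without tpm2, tpm3 and myh7b, a choice made after seeing the values, the log2 ratio of liver over embryo of the slow class went from -4.31 to -8.33. mybpc1, the slow myosin-binding protein C, had 658 embryo reads and 47 liver reads.

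Heart genes were the least abundant of the striated classes in the embryo pool. Their 3975 reads were 0.602% (0.584 to 0.621) of the fast, slow and heart reads, against 95.5% for fast and 3.89% for slow genes. With unique reads the heart share was 0.941% (0.911 to 0.971). Per exon length the order was the same, with summed RPKM of 22821 for fast, 641 for slow and 151 for heart genes. The ventricular myosin vmhc (current myh7) had 1351 embryo reads and 7 liver reads. The heart regulatory light chain myl7 had 292 and 10, and the heart myosin-binding protein mybpc3 had 941 and 8. The heart troponins were low throughout, with 183 embryo reads for tnni1b, 134 for tnnt2a and 64 for tnnc1 (current tnnc1a), against 8, 7 and 0 in the liver pool.

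Of the 9 heart genes 8 were higher in the embryo pool, against the background of 30.9%. The exception was tpm4 (current tpm4a), the heart's tropomyosin, with 763 embryo reads and 189 liver reads, a ratio of 4.61 (3.92 to 5.43) whose interval reached below 4-fold. tpm4 held most of the 229 liver reads of the class. Without it, the class log2 ratio went from -4.31 to -6.52, also a choice made after seeing the values. Of the tropomyosins together, tpma took 83.5% (83.3 to 83.8) of the embryo reads and 0.322% (0.0877 to 0.821) of the liver reads. In the liver pool tpm3 took 60.3% (57.5 to 63.0).

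**Figure D2:**
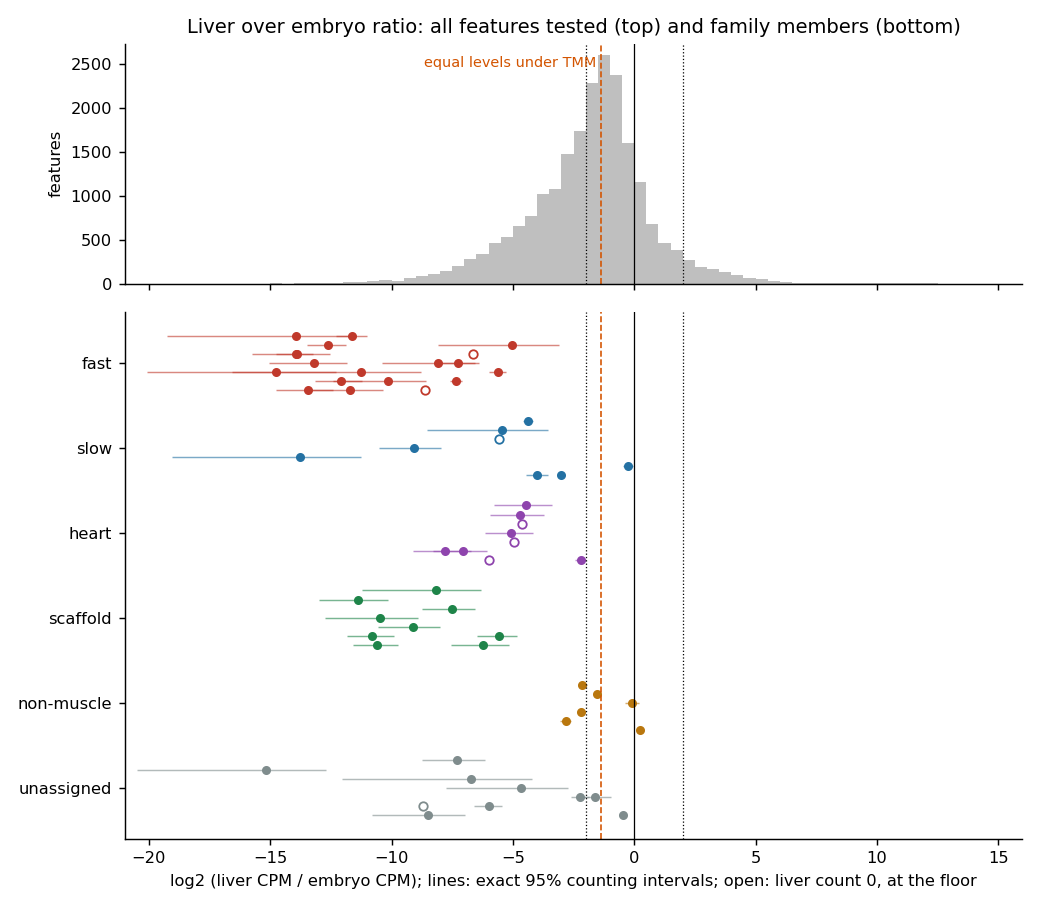
Log2 ratio of liver over embryo CPM, for all features tested as a histogram (top) and for each member by class with exact 95% counting intervals (bottom); open points have a liver count of 0 and are drawn at the floor. Dotted lines mark 4-fold, the dashed line marks equal levels under TMM scaling. Fast and scaffold genes lie at -5 or below, to the left of the bulk of features, and the 6 non-muscle genes lie within it.

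Scaffold genes were all higher in the embryo pool, against the background of 30.9%. The 9 members had 51420 embryo reads and 66 liver reads, a ratio of 889 (699 to 1149.8). The titins ttnb and ttna, the elastic giants that run from the Z disc to the middle of the sarcomere, had 15493 and 14779 embryo reads and 10 and 11 liver reads. The 2 titin genes lie side by side within 338.5 kb and shared the embryo reads almost evenly, ttna with 48.8% (48.3 to 49.4). Nebulin neb, which lies along the thin filament, had 11658 embryo reads and 5 liver reads. Because titin exons total 99304 bases for ttna and 87604 for ttnb, their RPKM were only 12.6 and 15.4, below neb at 51.8. The smaller proteins followed, with myom1a and myom1b of the M line at 3705 and 3 and at 1294 and 8, ldb3b of the Z disc at 2943 and 6 and tcap, the titin cap, at 501 and 2 embryo and liver reads. actn2 (current actn2b), an alpha-actinin of the Z disc, had 458 and 7. The fast alpha-actinins actn3a and actn3b were at 11730 and 20809 embryo reads and 4 and 146 liver reads. Of the actn3b embryo reads only 5176 lay in exons.

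**Figure D3:**
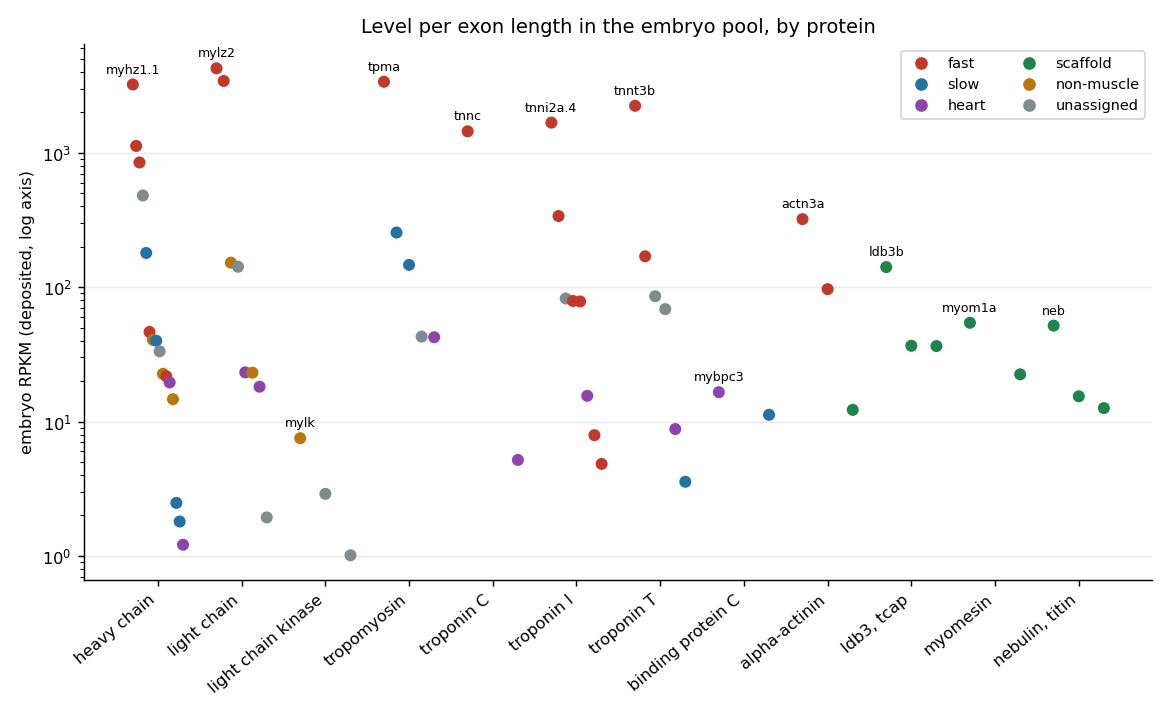
RPKM as deposited by the authors for each member in the embryo pool, on a log axis, grouped by protein and coloured by class, with the highest member of each protein named. For heavy chains, light chains, tropomyosin and the 3 troponins the highest member is a fast gene, between 1447 (tnnc) and 4261 RPKM (mylz2).

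The non-muscle and smooth-muscle isoforms were present in both pools. They had 8101 embryo reads and 4553 liver reads, with an embryo to liver ratio of 2.03 (1.96 to 2.11) that turned under TMM to a log2 ratio of liver over embryo of 0.33. The non-muscle heavy chain myh10 had 1997 embryo reads and 2663 liver reads, the only member with a liver to embryo ratio above 1 with library totals, 1.17. Under TMM this ratio was 2.98, and those of myl12.2, myh7b and myh9l1 also lay above 1, so that 4 members were on the liver side.

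Of the 6, 2 were called higher in the embryo pool, a share near the background of 30.9%. The smooth-muscle heavy chain myh11 (current myh11a) had 1247 embryo reads and 201 liver reads, a ratio of 7.08 (6.10 to 8.26). The non-muscle heavy chain myh9l2 (current myh9a) had 1403 and 349, a ratio of 4.59 (4.08 to 5.17). Neither call was kept under TMM, and that of myh9l2 was also lost with unique reads. The regulatory light chains myl12.2 and myl9l (current myl12.1) had 190 and 2097 embryo reads against 206 and 831 liver reads. mylk, the kinase that phosphorylates such light chains, had 1167 and 303 reads and was called in neither direction. Of these mylk reads 297 and 240 lay in exons. The liver to embryo ratio of mylk was 0.228 with gene reads and 0.673 with exon reads. myh9l1 had 2947 embryo reads and 2413 liver reads and was likewise called in neither direction. It was unassigned because its name was not on the class lists and no current symbol matched it.

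Of the 10 unassigned members 7 were higher in the embryo pool, against a background of 30.9%, and 3, myh9l1 among them, in neither. ns:zf-e68 matched no current symbol. In the coordinates of the files it lies between myhc4 and myhz1.2, inside a stretch of 102.6 kb that also holds myhz2 and myhz1.1, and it has 41 exons and 5954 exon bases, against 41 and 5975 for myhz1.2. It had 32739 embryo reads and 1 liver read, more embryo reads than any member listed as slow or heart. The troponin T copies tnnt2e and tnnt2d, named after the heart gene, had 1506 and 961 embryo reads and 27 and 3 liver reads. The light chain myl10 had 1095 embryo reads and none in the liver pool. Its ratio was 417 at the floor, with a lower interval limit of 338. tnni1al (current tnni4b.2), a troponin I gene, had 826 and 6, and the kinases mylk4 and mylk3 had 92 and 44 embryo reads and 1 and 2 liver reads. tpm1 had 322 and 79 reads and the light chain myl2 had 70 and 26, both called in neither direction.

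How far a single myosin value can be trusted depended on reads shared between copies. In the embryo pool the share of reads with 1 position was 31.9% for myhz1.1, 33.0% for myhz1.2, 34.7% for myhz2, 34.0% for ns:zf-e68 and 36.2% for myhc4. By contrast it was 99.7% for myhb, a fast heavy chain on another chromosome, and over 99% for mylz2, mylz3, tpma, tnnt3b, tnnc and actn3a. The order within the cluster was the same with unique reads alone, which gave 70711 for myhz1.1, 25345 for myhz1.2, 19996 for myhz2, 11127 for ns:zf-e68 and 533 for myhc4. The slow myosins were also mixed, with 54.8% unique for smyhc1, 44.1% for smyhc2 and 22.4% for smyhc3. For the non-muscle heavy chain myh10, 30.9% of embryo reads and 30.7% of liver reads were unique. myom1b had 2.32%, myl9l 6.96% and mylk3 no unique embryo read, so these 3 values are uncertain. In all, 14 members had fewer than 50% unique embryo reads and 41 had at least 90%. With unique reads 50 members were higher in the embryo pool, all among the 52, against a background of 30.3%.

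**Figure D4:**
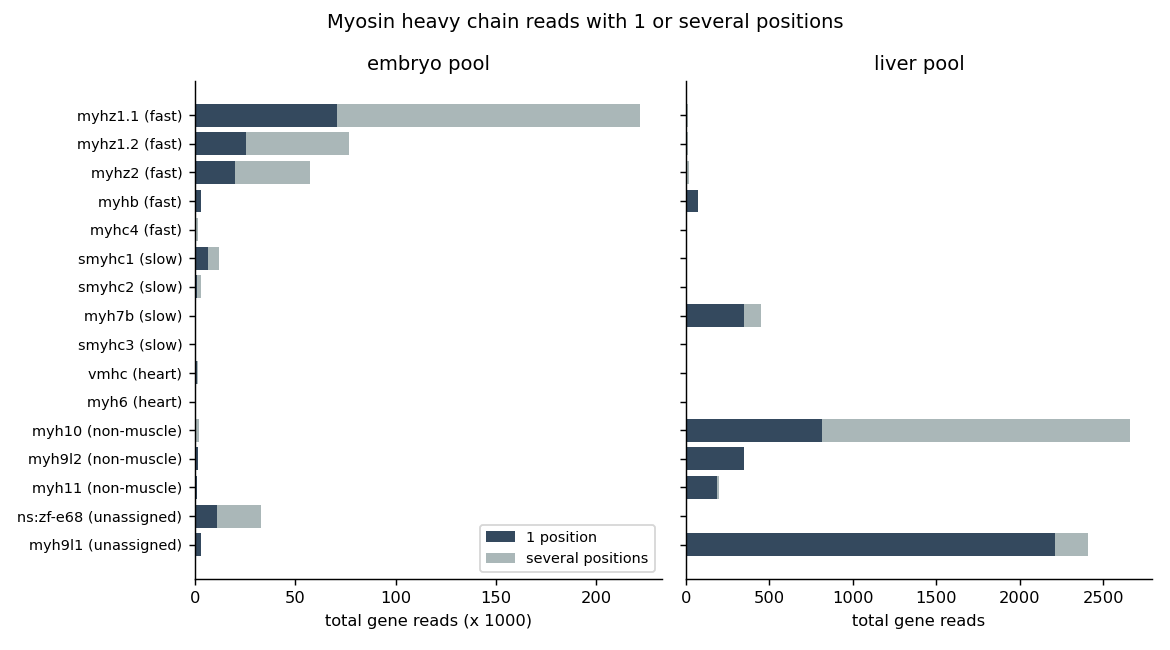
Total gene reads of the myosin heavy chains in each pool (embryo axis in units of 1000 reads), split into reads with 1 position and reads with several. The embryo bars are led by myhz1.1, myhz1.2 and myhz2, mostly reads with several positions. The liver bars are led by myh10 with 2663 reads, mostly with several positions, and myh9l1 with 2413 reads.

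The few fast myosin reads of the liver pool were distributed unlike those of the embryo pool. myhb took 74 of the 136 liver reads of the 5 listed fast heavy chains, 54.4% (45.7 to 63.0), and 3186 of 360683 embryo reads, 0.883% (0.853 to 0.914). With unique reads it took 80.4% (70.9 to 88.0) in the liver pool and 2.65% (2.56 to 2.75) in the embryo pool. All 74 liver reads of myhb were unique and lay in exons, and 18 spanned a junction between exons. myhb was still 49.1-fold higher (39.0 to 62.7) in the embryo pool. Together with actn3b it held 68.3% (62.9 to 73.4) of the liver reads of the fast class, and without the pair the class log2 ratio went from -11.13 to -12.73.

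Of the liver reads of striated members a larger part lay outside exons than over all features. Of these 655 reads outside exons, myh7b held 259, tpm2 125 and tpm3 72. Of the 2095 liver reads of the 45 striated members 68.7% (66.7 to 70.7) were exon reads, against 90.1% over all features of that library. In the embryo pool the share was 97.2%, against 85.6% over all features. For 10 striated members with liver reads no read lay in an exon, among them ldb3a with 14, myl7 with 10, mybpc3 and tnni1b with 8, and actn2 and tnnt2a with 7. Outside that class, tnnt2e had 1 exon read of 27 and myl2 1 of 26. For these genes the liver RPKM, which uses exon reads, was at or near 0. myh7b had few exon reads in both pools, 42.4% in liver and 35.9% in embryo.

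actn3b had few exon reads in the embryo pool, as had mylk with 25.4% of its reads in exons. Only 5176 of the 20809 actn3b reads, 24.9%, lay in exons, and 37.7% of all its reads were unique. Its RPKM of 96.8 was therefore below the 321 of actn3a, although it had more gene reads. With total exon reads in place of gene reads 54 members were higher in the embryo pool, against a background of 36.4%, with tpm4 and myl2 added to the 52. Another 4 members, myh6, cmlc1, tnnt1 and tpm1, are annotated with a single exon in the files and had no junction read. Their values, 82, 165, 77 and 322 embryo reads, were counted on that exon, which spans 5939, 796, 1894 and 658 bases. For comparison, vmhc has 5991 exon bases in 39 exons. A further entry with the current symbol tnnt1 (zgc:193865 in the files), outside the name rule, has 15 exons. It had 180 embryo reads, with 69 junction reads, and 6 liver reads.

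**Figure D5:**
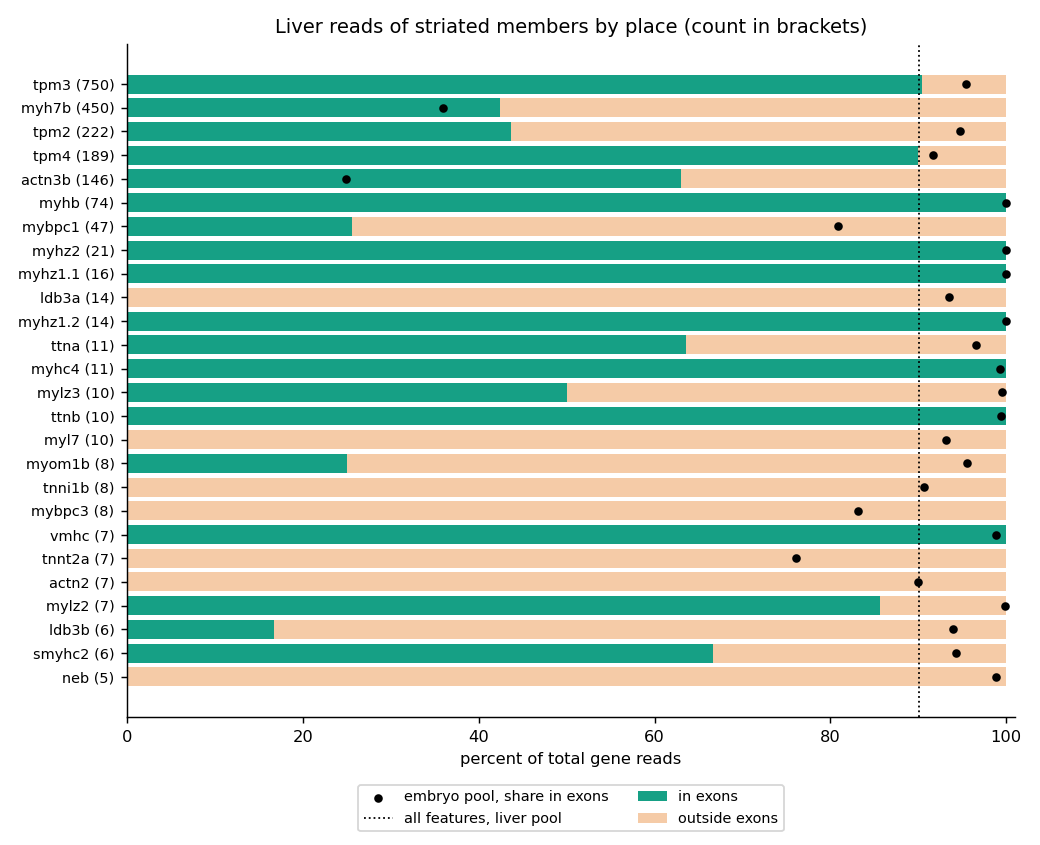
Share of liver total gene reads in exons and outside exons for the striated members with at least 5 liver reads (count in brackets); black points give the exon share of the same gene in the embryo pool and the dotted line that of all features in the liver pool. myhb and the myhz genes lie wholly in exons, whereas ldb3a, myl7, tnni1b, mybpc3, tnnt2a, actn2 and neb have no liver exon read.

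Other skeletal muscle genes showed the same side. The 10 skeletal muscle markers outside the name rule included the actin actc1b and the parvalbumins that buffer calcium in fast fibres. All 10 were higher in the embryo pool, against a background of 30.9%. Their summed level was 27142 CPM (embryo) and 4.07 CPM (liver), and pvalb2, pvalb3, myog and myod1 had no liver read. The smooth muscle list had 5 of 7 genes matched, with summed levels of 423 CPM (embryo) and 44.1 CPM (liver). With library totals 4 of the 5 were higher in the embryo pool, against the same background of 30.9%. Under TMM only acta2 was, 1 of 5, a share near the background of 15.8%. This list holds myh11 itself. Markers of other cells were in the liver pool too. The 6 matched exocrine pancreas genes summed to 1035 CPM there and 3897 CPM in the embryo pool, the 3 matched endothelial genes to 63.6 and 66.2 CPM, and the 6 blood genes to 195 and 663 CPM, of which the adult globins hbaa1 and hbba1 had 884 and 1536 liver reads and no embryo read. The 6 hepatocyte markers were all higher in the liver pool, where the background was 3.35%, with 71499 CPM against 2693 CPM. The part of these cells in the liver counts of sarcomere genes was not tested.

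The calcium-handling machinery that triggers contraction was also on the embryo side. Of 24 listed genes 20 matched and 19 were measured, of which 17 were higher in the embryo pool and 2 in neither, or 14 under TMM. The calcium pump of fast fibres atp2a1 had 36913 embryo reads and 8 liver reads, and casq1a (zgc:100957 in the files), which stores calcium, had 4744 and 9. The pump atp2a2b, a gene used outside muscle as well, had 1473 and 1524 reads and was called in neither direction. All 13 measured genes of sarcomere assembly and turnover were higher in the embryo pool, 12 under TMM, such as the muscle methyltransferase gene smyd1a with 1519 and 1 reads and the ubiquitin ligase adaptor klhl41b (kbtbd10 in the files) with 1617 and 0. Of 10 measured genes of the costamere and intermediate filaments 9 were higher in the embryo pool, 7 under TMM, with the desmin gene desma (desm in the files) at 1494 and 12 reads. The background shares are those given above, 30.9% with library totals and 15.8% under TMM.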

How the data were processed

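RNA of embryo samples and of adult livers was pooled and sequenced as 1 library each, per the labels. Per the file headers, the authors deposited whole-number counts of unique and total reads for genes, exons, exon junctions and the borders of introns. RPKM as deposited by the authors recomputed from total exon reads, exon length and total gene reads to within 0.00217. Median coverage per gene was also deposited and enters no result. Aligner, annotation and build were not stated in these sources. Spans but no coordinates are therefore printed.

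CPM used library totals. Ratios carry exact 95% Clopper-Pearson intervals on the conditional binomial. A count of 0 was set to 3 counts for ratios at the floor and for medians. No test was possible with 1 library per group. TMM factors came from edgeR 4.0.16 and size factors from DESeq2 1.42.0, both scaling only. Features were matched to current symbols by symbol, unambiguous synonym or gene number in the RefSeq table of GRCz12tu, for names only.

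Members, lists and classes were chosen with earlier results of these data known. Named were up to 6 most abundant members per class, striated members with at least 10 liver reads, members called higher in the liver pool, members with at least 100 counts called in neither direction and ns:zf-e68; others were named after their values were seen.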

Additional observations from a re-analysis of the deposited data

How the results depend on the processing

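No paired analysis was possible because each group has 1 library. The count of members higher in the embryo pool, 52, ranged from 46 (size factors) to 56 (a bound of 2-fold) over 8 other read counts, scalings, minimums and bounds. No member was higher in the liver pool under any of them. The background share is not given here for size factors, other bounds or other minimums. Those counts are thus not set against all features. TMM factors ended the calls of tnni2a.3, tpm3, myh9l2, myh11 and mylk3, and size factors that of tnnt2a as well, since each moves all ratios by 1 shift (1.35 and 1.38 in log2). In log2 liver over embryo, fast, slow, heart and non-muscle genes gave -11.13, -4.31, -4.31 and -1.02. With unique reads fast, slow and non-muscle genes gave -10.73, -3.75 and -1.26. With exon reads the 4 classes gave -11.49, -4.91, -4.64 and -0.97, with TMM -9.77, -2.96, -2.96 and 0.33, and with size factors -9.74, -2.93, -2.93 and 0.36. The remaining settings were added after seeing the data. With the clone-named relatives added to the members of each class, the 4 classes gave -10.84, -4.43, -4.55 and -1.26. The class without its members of highest liver count gave -12.73 for fast, -8.33 for slow and -6.52 for heart genes. The ratio of fast to slow embryo reads, 24.6, was 22.7 with unique reads, 24.9 with exon reads, 25.8 with ns:zf-e68, 23.4 with relatives and 39.9 without tpm2, tpm3 and myh7b. The heart share, 0.602%, was 0.941%, 0.572%, 0.574% and 0.681% under the first 4 of these and 0.487% without tpm4. Apart from the shift of the scalings and the genes left out, the cause was not tested. Liver counts under 10, held by 35 members, leave wide intervals for single genes.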

Other observations

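The name rule missed relatives that the files list under clone or locus names. By current symbol 27 further features belong to these families, of which 26 were measured. Of these, 24, or 92.3%, were higher in the embryo pool, against the background of 30.9% of all features tested. None was higher in the liver pool, and 2, tnni1a (LOC558408 in the files) and mylk2 (mlck2 in the files), were in neither. Under TMM, with a background of 15.8%, the calls of tpm4b, myl6, myl9a, myot, tnni4a, tnnt2b and nebl were lost. The most abundant relatives were a pair of fast light chain genes. mylpfb (zgc:103639 in the files) had 13020 embryo reads and 2 liver reads, and myl1 (zgc:77231 in the files) had 10096 and 5. The slow troponin C gene tnnc1b (stnnc in the files) had 1154 embryo reads and no liver read. Its ratio was 439 at the floor of 3 counts, with a lower interval limit of 356. mybphb (zgc:165344 in the files), a myosin-binding protein H gene, had 5791 embryo reads and 61 liver reads, of which 4 were exon reads. The fast heavy chain myha (LOC100149148 in the files) lies in the same stretch as myhz1.1 and had 703 embryo reads and 3 liver reads. By symbol the name pattern also met tpmt.1, tpmt.2 and tnni3k, which are not sarcomere subunits and were left out.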
